A study of Mus musculus with 4 samples.

Results

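The genes described here are 41 components of the TGF-beta, activin and BMP pathways, chosen by symbol from the 41457 rows of a table of gene counts. All 41 symbols were found, each in 1 row. Poly(A) RNA was sequenced from mouse colon tumour cells cultured in RPMI medium, with a single library for the control cells and for each of 3 mutant lines, named M8, M32 and M83. All 3 lines carry the genotype label ENU mutant, where ENU is N-ethyl-N-nitrosourea, a chemical mutagen that leaves mainly point mutations. The mutated genes, the name of the parent line, any treatment and whether each line is 1 clone are not stated in the labels. The design text speaks of triplicates, while the table holds 1 column per sample, so each column is treated here as 1 library.

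Ligands of the TGF-beta superfamily are secreted dimers that bring together type I and type II receptor kinases on the cell surface. TGF-beta and activin receptors mainly phosphorylate Smad2 and Smad3, and BMP receptors mainly phosphorylate Smad1, Smad5 and Smad9. The phosphorylated Smads join the common partner Smad4 and act on target genes in the nucleus. The pathway is controlled outside the cell by latency proteins and by antagonists such as follistatin and gremlin, and inside it by the inhibitory Smads and by the corepressors Ski and Skil. In the colon, loss of TGF-beta or BMP signalling is a known route of tumour progression, while in mesenchymal cells TGF-beta drives matrix genes.

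Levels are given as CPM, the count of a gene scaled to a common library total. Total counts ranged from 25818148 (control) to 28879954 (M8). The epithelial genes Epcam and Cdx2 had 0 counts in all 4 libraries, which in control allows up to 0.118 CPM, and Cdh1 had at most 4 counts. The summed level of 8 fibroblast and mesenchymal markers lay between 6679 CPM (control) and 8019 CPM (M32). Most of these counts came from Vim (115473 in control to 146659 in M83), Col1a2 and Col1a1. Thy1 was at 0 counts, Lum had at most 8 and Dcn at most 48. The summed level of 6 leukocyte markers was at most 0.848 CPM and that of 6 endothelial markers at most 0.913 CPM. Of 8 epithelial markers 2 (Krt18 and Krt20) had a mean of at least 50 counts, and the summed level of the 8 lay between 73.8 CPM (M32) and 180 CPM (M8). In such bulk libraries, fewer cells of a type and less RNA per cell cannot be told apart. Values below are scaled CPM, with TMM factors for library composition, unless counts are named.

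Levels were first compared between the genes per kilobase of exon. The BMP target gene Id1 stood highest, with 65.1 (control), 103 (M8), 65.5 (M32) and 67.8 (M83) CPM per kb. Id3 followed with a mean of 57.6 CPM per kb over the 4 libraries, then Grem1 with 33.5, Ltbp1 with 33.1, Id2 with 27.4 and Ski with 25.9. Id1, Id2 and Id3 encode inhibitors of basic helix-loop-helix transcription factors, and Ski encodes a corepressor of Smad complexes. Grem1 was above Ltbp1 only in M8, with 61.3 against 33.4 CPM per kb. It was below Ltbp1 in control (15.7 against 27.2), M32 (24.1 against 32.7) and M83 (33.1 against 38.9).

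**Figure D1:**
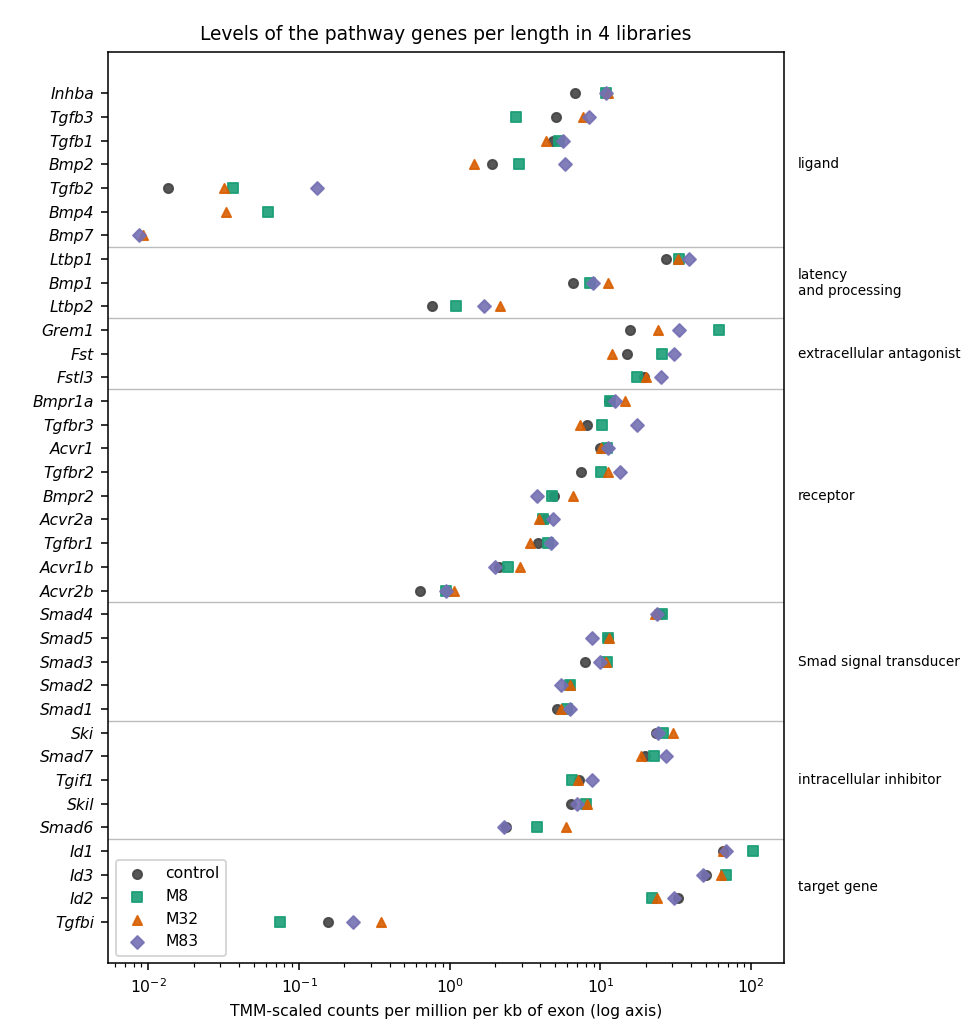
TMM-scaled CPM per kilobase of exon (log axis) for the 36 pathway genes with a count in any library, grouped by role. Each symbol is 1 library. Libraries with a count of 0 are not drawn. Id1 and Id3 are at the top, and Tgfb2, Bmp4 and Bmp7 lie at the bottom of the scale.

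Several parts of the pathway were not detected or had few counts. Inhbb (the activin B subunit), Nog (the BMP antagonist noggin), Bambi (a decoy receptor), Smad9 and Id4 had 0 counts in every library. Bmp7 had 1 count in M32 and 1 in M83, and Bmp4 had 4 counts in M8 and 2 in M32, with 0 in the other libraries. Tgfb2 had 2 (control), 6 (M8), 5 (M32) and 22 (M83) counts and passed the filter on low counts only through M83. Tgfbi, a matrix gene named for its induction by TGF-beta, had 15 (control), 8 (M8), 36 (M32) and 25 (M83) counts. The other 32 genes had a mean of at least 50 counts, among them the ligand genes Tgfb1, Inhba and Bmp2.

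The main comparison asked which pathway genes separated the mutant lines, as 1 group, from control. None of the 34 tested pathway genes passed in edgeR's quasi-likelihood test (adjusted p under 0.05). Over all 13576 tested genes 0% were called higher and 0.00737% lower, so almost no gene of the table was called either way. At an unadjusted p under 0.05 edgeR listed 4 pathway genes as higher and 0 as lower, where 2.8% of all tested genes were listed as higher and 0.501% as lower. DESeq2 called 0 pathway genes and 0.436% of the 11465 genes it adjusted. The fit has 2 residual degrees of freedom and sets 3 different mutants against 1 control library, so the p-values measure the spread between the lines and assume that the control varies like them. No label says that the libraries came from separate cultures.

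The genes with an unadjusted p under 0.05 were Inhba, Grem1, Tgfbr2 and Ltbp2, each higher in every line than in control. Of all tested genes, 23.3% were likewise higher in every line. Inhba, the subunit gene of activin A, had 1103 (control), 1991 (M8), 1957 (M32) and 2020 (M83) counts. Its scaled level was 43.2 CPM in control and nearly the same in the 3 lines, 70.6 CPM ± 1.31 (SD, n = 3). The log2 difference was 0.71 (SE 0.222, edgeR unadjusted p = 0.0165, adjusted p = 1). Grem1, the secreted BMP antagonist gremlin, had 1664 (control), 7243 (M8), 2709 (M32) and 3970 (M83) counts. Unlike Inhba it differed widely among the lines, with 164 CPM ± 80.6 (SD, n = 3) against 65.2 CPM in control. Its log2 difference was 1.33 (SE 0.533, edgeR unadjusted p = 0.0435, adjusted p = 1), and without M8 it was 0.86.

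Tgfbr2, the type II TGF-beta receptor, had 1545 (control), 2344 (M8), 2475 (M32) and 3211 (M83) counts. The log2 difference was 0.65 (SE 0.261, edgeR unadjusted p = 0.0441, adjusted p = 1). Ltbp2, a microfibril protein of the latent TGF-beta binding protein family that does not itself bind latent TGF-beta, had 159 (control), 256 (M8), 481 (M32) and 400 (M83) counts. Its log2 difference was 1.12 (SE 0.454, edgeR unadjusted p = 0.0458, adjusted p = 1). Leaving out M32 or M83 took the unadjusted edgeR p of Ltbp2 to 0.115 and 0.0788 and that of Tgfbr2 to 0.0807 and 0.0847, and leaving out M32 took that of Inhba to 0.0575. Of the 50-base words in the Ltbp2 transcripts 8.58% also lie in D030025P21Rik, which had at most 14 counts in any library.

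The promoters of these genes and of Smad6, which is described below, are shown because the genes were higher together or carry a Smad element. Each sequence is from RefSeq (GRCm38.p6) and runs from 250 bases before the start of the gene to 30 after it, on the strand of the gene. Capitals mark matches on either strand to CAGAC (the short Smad element), GGCGCC (a GC-rich Smad element) or GTCTAGAC (the palindromic Smad element, which shares the letters AGAC with the first).
Inhba (ENSMUSG00000041324), chr13:16011601-16011880, plus strand: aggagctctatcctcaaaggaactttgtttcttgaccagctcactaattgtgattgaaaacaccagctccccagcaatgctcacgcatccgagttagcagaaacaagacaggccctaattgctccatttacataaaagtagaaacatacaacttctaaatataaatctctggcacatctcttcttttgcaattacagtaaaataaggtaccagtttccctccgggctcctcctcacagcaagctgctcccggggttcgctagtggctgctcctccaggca
Grem1 (ENSMUSG00000074934), chr2:113758619-113758898, minus strand: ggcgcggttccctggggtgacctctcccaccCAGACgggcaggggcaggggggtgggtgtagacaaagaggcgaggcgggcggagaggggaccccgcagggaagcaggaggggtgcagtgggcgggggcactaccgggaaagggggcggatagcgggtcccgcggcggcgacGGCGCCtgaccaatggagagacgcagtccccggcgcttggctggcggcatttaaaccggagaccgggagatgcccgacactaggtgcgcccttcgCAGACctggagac
Tgfbr2 (ENSMUSG00000032440), chr9:116175334-116175613, minus strand: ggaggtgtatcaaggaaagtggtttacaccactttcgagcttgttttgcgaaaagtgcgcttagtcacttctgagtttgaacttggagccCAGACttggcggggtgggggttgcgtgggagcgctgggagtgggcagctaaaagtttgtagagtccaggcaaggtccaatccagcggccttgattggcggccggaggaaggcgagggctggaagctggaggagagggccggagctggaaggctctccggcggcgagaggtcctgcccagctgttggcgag
Ltbp2 (ENSMUSG00000002020), chr12:84876462-84876741, minus strand: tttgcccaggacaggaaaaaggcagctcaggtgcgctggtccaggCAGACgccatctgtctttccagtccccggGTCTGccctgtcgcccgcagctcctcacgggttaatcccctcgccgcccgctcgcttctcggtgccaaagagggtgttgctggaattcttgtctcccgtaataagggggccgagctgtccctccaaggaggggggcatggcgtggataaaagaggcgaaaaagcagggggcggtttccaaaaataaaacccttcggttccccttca
Smad6 (ENSMUSG00000036867), chr9:64022030-64022309, minus strand: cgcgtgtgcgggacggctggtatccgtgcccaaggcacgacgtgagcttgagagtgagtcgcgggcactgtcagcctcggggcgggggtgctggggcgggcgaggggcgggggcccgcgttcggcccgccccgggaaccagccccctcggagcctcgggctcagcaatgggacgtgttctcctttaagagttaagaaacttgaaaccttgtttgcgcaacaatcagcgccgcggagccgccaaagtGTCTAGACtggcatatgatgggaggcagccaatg

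Motifs were counted from 250 bases before to 50 after each start. The Smad6 promoter held GTCTAGAC, starting 4 bases before the annotated start. Of 32851 promoters searched over that window 0.213% held this motif, and Smad6 was the 1 pathway gene among 28 with a promoter in the table that did. CAGAC was found in 44.4% of the 36 promoters of these 28 genes and in 49.6% of all promoters. Grem1 held it at 2 places, Tgfbr2 at 1 and Ltbp2 at 3, the last of which runs past the printed end. Smad6 held no CAGAC, and the Inhba promoter held no match to any of the motifs. GGCGCC was found in 33.3% of the pathway promoters and 11.9% of all promoters. The mean GC content was 65.3% in the pathway promoters and 53.8% in all promoters, and its part in this share was not tested. These matches describe letters only and do not show that a Smad binds there.

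Among the ligands with a mean of at least 50 counts, Bmp2, Tgfb3 and Tgfb1 lay above control in some lines and below it in others. Bmp2, a BMP ligand, had 174 (control), 290 (M8), 140 (M32) and 597 (M83) counts. M83 stood apart at 20.6 CPM, at least 2-fold above each other library. No other pathway gene stood apart in this way. Of all genes with at least 50 counts in the highest library, 0.932% stood apart as high in M83, 0.735% in M32, 0.394% in M8 and 0.143% in control, and 0.923%, 0.699%, 1.46% and 1.71% stood apart as low in the same order. Its ratio to control in M83 was 3.03 (95% exact interval 2.55 to 3.61), and in M32 it was 0.757 (0.602 to 0.951). The log2 difference of the lines was 0.82 (SE 0.73), and without M83 it was 0.15. Tgfb3 had 438 (control), 264 (M8), 708 (M32) and 827 (M83) counts, so M8 lay below control and the other lines above it. Tgfb1, the best known TGF-beta ligand, was flatter, with 626, 757, 591 and 821 counts in control, M8, M32 and M83, between 21.8 and 28.4 CPM.

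The 3 pathway genes grouped as latency and processing, Ltbp1, Ltbp2 and Bmp1, were each higher in every line than in control. Ltbp1, which tethers latent TGF-beta to the matrix, had 7430 (control), 10184 (M8), 9477 (M32) and 12022 (M83) counts. Its log2 difference was 0.36 (SE 0.226, edgeR adjusted p = 1). Bmp1, a metalloprotease that cleaves procollagen and the antagonist chordin, had 1494 (control), 2156 (M8), 2709 (M32) and 2275 (M83) counts, with a log2 difference of 0.53 (SE 0.259). All 3 genes of this role exceeded control in each line, as did 23.3% of all tested genes, while 21.3% were below it in each.

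The antagonists differed in which line was highest. Fst, which encodes the activin-binding protein follistatin, had 1757 (control), 3340 (M8), 1488 (M32) and 4100 (M83) counts. It was higher in M8 and M83 and lower in M32, with ratios to control of 1.70 (95% exact interval 1.61 to 1.81), 2.06 (1.95 to 2.18) and 0.797 (0.743 to 0.854). Fstl3, a relative of follistatin, had 1208 (control), 1214 (M8), 1334 (M32) and 1798 (M83) counts. Of the 50-base words in the Fstl3 transcripts 46.2% also lie in Prss57 on the opposite strand, which had at most 4 counts. Grem1 was higher in M8 by a ratio of 3.90 (95% exact interval 3.70 to 4.12), in M83 by 2.11 (1.99 to 2.23) and in M32 by 1.53 (1.44 to 1.63).

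**Figure D2:**
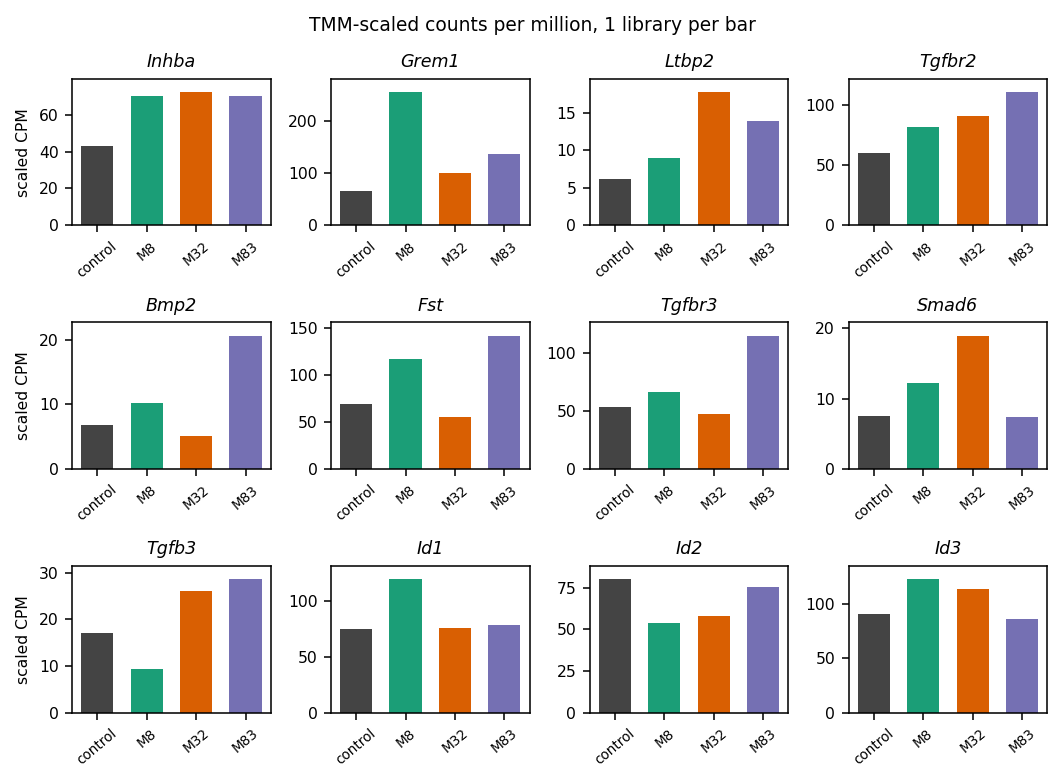
TMM-scaled CPM of 12 pathway genes, with 1 bar per library and each axis starting at 0. Inhba is nearly level in the 3 lines and above control, Grem1 is highest in M8, Bmp2 and Tgfbr3 in M83 and Smad6 in M32.

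Of the receptors, Tgfbr2 has been described, and its type I partner Tgfbr1 did not share its pattern. Tgfbr1 had 647 (control), 841 (M8), 604 (M32) and 882 (M83) counts, a log2 difference of 0.11 (SE 0.277). The co-receptor Tgfbr3 (betaglycan), which presents TGF-beta to the type II receptor, had 1366 (control), 1895 (M8), 1299 (M32) and 3334 (M83) counts. Its ratio to control was 2.15 in M83 (95% exact interval 2.02 to 2.30) and 0.895 in M32 (0.829 to 0.966), and without M83 its log2 difference went from 0.52 to 0.08. Acvr2b, an activin type II receptor, was low, with 64 (control), 106 (M8), 113 (M32) and 107 (M83) counts. The BMP type II receptor Bmpr2 had 2241 (control), 2433 (M8), 3215 (M32) and 1966 (M83) counts, higher in M32 and lower in M83. The remaining receptors Acvr1, Acvr1b, Acvr2a and Bmpr1a had log2 ratios between -0.14 (Acvr2a in M32) and 0.46 (Acvr1b in M32). Acvr2a is less certain, since 6.98% of the 50-base words in its transcripts also lie in Orc4, which had between 1529 and 1919 counts.

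The common and TGF-beta-side Smads differed little, apart from Smad3. Smad4, the common partner, had 2346 (control), 2723 (M8), 2321 (M32) and 2539 (M83) counts, and its highest scaled level was 1.12 times its lowest. Smad2 had 1376 (control), 1562 (M8), 1487 (M32) and 1400 (M83) counts, with a log2 difference of -0.03 (SE 0.223). Smad3 differed more, with 1119 (control), 1751 (M8), 1626 (M32) and 1588 (M83) counts. It was above control in every line with 58.8 CPM ± 3.44 (SD, n = 3) against 43.8 CPM. The log2 difference of Smad3 was 0.42 (SE 0.226, edgeR unadjusted p = 0.106, adjusted p = 1). Smad1 and Smad5, which serve BMP receptors, had log2 differences of 0.19 (SE 0.229) and -0.09 (SE 0.246). Smad5 was lower in M83 alone, with a ratio to control of 0.789 (95% exact interval 0.742 to 0.840).

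Among the intracellular inhibitors, Smad6 was highest in M32. It had 193 (control), 347 (M8), 514 (M32) and 212 (M83) counts. Smad6 mainly restrains BMP signalling, and its promoter is the one with the palindromic element shown above. The ratio to control was 2.51 in M32 (95% exact interval 2.12 to 2.97), 1.61 in M8 (1.35 to 1.93) and 0.969 in M83 (0.794 to 1.18). Smad7, the inhibitory Smad that acts on TGF-beta receptors too, was highest in M83 instead, with 2272 (control), 2932 (M8), 2290 (M32) and 3575 (M83) counts. Ski had 3306 (control), 4122 (M8), 4559 (M32) and 3896 (M83) counts, and Skil 1568, 2212, 2129 and 1969 in the same order. Both exceeded control in each line by at most 1.30-fold. Tgif1, a homeodomain corepressor, had log2 ratios of -0.15 (M8), -0.01 (M32) and 0.30 (M83).

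The Id genes, direct targets of BMP signalling, differed from one another. Id1 had 1927 (control), 3414 (M8), 2061 (M32) and 2276 (M83) counts, so M8 stood at 119.9 CPM and the other libraries between 75.5 and 78.7 CPM. Id3 had 2308 (control), 3494 (M8), 3082 (M32) and 2495 (M83) counts, higher in M8 and M32. Id2 went the other way, with 2043 (control), 1529 (M8), 1574 (M32) and 2179 (M83) counts. It was the 1 pathway gene below control in every line, where 22.7% of genes with a mean of at least 50 counts lay so. Its log2 difference was -0.36 (SE 0.262, edgeR adjusted p = 1), and in M83 the ratio of 0.941 was close to 1. M8 thus had the highest Id1, the highest Id3 and the highest Grem1 of the 4 libraries.

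**Figure D3:**
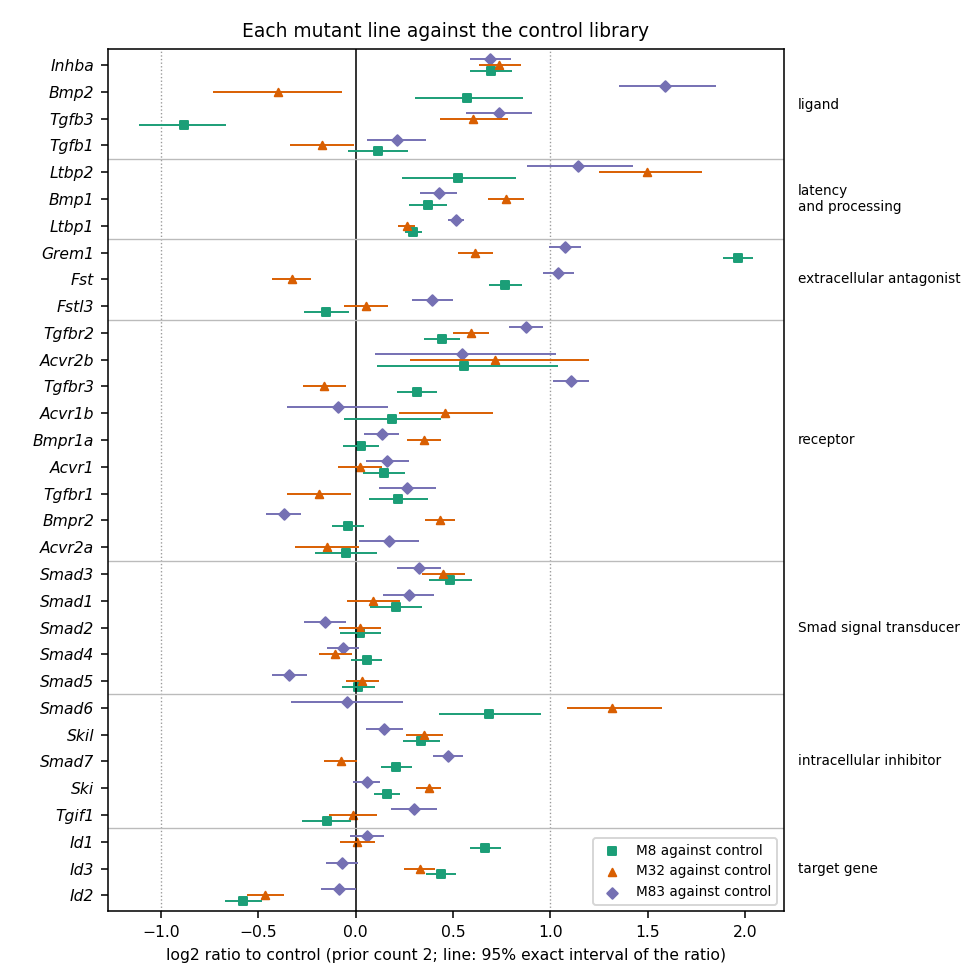
Log2 ratio of each mutant line to the control library for the 32 pathway genes with a mean of at least 50 counts, grouped by role. Points use a prior count of 2, lines are 95% exact intervals that cover counting error only, and dotted lines mark 2-fold. Beyond the dotted line on the right lie Grem1 in M8, Ltbp2 and Smad6 in M32, and Bmp2, Ltbp2, Fst, Grem1 and Tgfbr3 in M83. No gene lies beyond the dotted line on the left.

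Single lines were then compared with the control library by size alone. A gene was counted when its log2 ratio was at least 1 in size, the higher library had at least 50 counts and the interval of the ratio left out 1. In M8, 1 of 32 pathway genes was higher (Grem1) and 0 were lower, against 3.73% and 2.05% of all genes with that depth. In M32, 2 of 32 were higher (Ltbp2 and Smad6) and 0 lower, against 4.86% and 1.15%. The shares in M8 and M32 are thus close to those of all genes. In M83, 5 of 32 were higher (Bmp2, Ltbp2, Fst, Grem1 and Tgfbr3) and 0 lower, against 5.19% and 1.27%. The M83 intervals of Fst (1.95 to 2.18), Grem1 (1.99 to 2.23) and Ltbp2 (1.84 to 2.68) reached below a ratio of 2. Those of Bmp2 and Tgfbr3 did not. These comparisons share 1 control library, so a control value that is low by itself would appear in all of them. Single libraries have no replicate check.

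More of the pathway genes lay above control than below it. The genes were chosen with earlier results of these data known, and the 3 lines share 1 control library. The shares of all genes are therefore given here for description and not as a test. Of the 32 genes with a mean of at least 50 counts, 14 exceeded control in all 3 lines and 1 fell short of it in all 3, against 21.4% and 22.7% of all genes of that depth. The lines taken singly had 26 (M8), 22 (M32) and 24 (M83) of the 32 above control, against 51.5%, 47.6% and 48.2% of all genes of that depth. The median log2 ratio of the 32 genes was 0.21 (M8), 0.18 (M32) and 0.27 (M83), and over all genes of that depth it was 0.01, -0.02 and -0.01. The summed level of all 41 genes was 1892 CPM (control), 2405 CPM (M8), 2215 CPM (M32) and 2415 CPM (M83). The fibroblast and mesenchymal marker sum was also higher in the lines (7146, 8019 and 7747 CPM in M8, M32 and M83, against 6679 CPM in control). Not every marker of that sum rose in each line. Col1a1, also listed below as a TGF-beta target gene, was at 430 (control), 888 (M8), 1231 (M32) and 1125 (M83) CPM. Col1a2 was at 1703 (control), 1843 (M8), 1905 (M32) and 1519 (M83) CPM. The epithelial marker sum was 103 (control), 180 (M8), 73.8 (M32) and 159 (M83) CPM. The part of either marker sum in these values was not tested.

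Ratios between partners within a library need no scaling between libraries. The pairs were chosen after their values were seen, and the ratios are of counts per kilobase. Inhba over Fst, an activin subunit over its antagonist, was 0.451 (control, 95% exact interval 0.418 to 0.486), 0.428 (M8, 0.405 to 0.453), 0.945 (M32, 0.882 to 1.01) and 0.354 (M83, 0.335 to 0.373). M32 alone was thus near parity, where Inhba was above control and Fst below it. Bmp2 over Grem1 was 0.122 (control, 0.104 to 0.143), 0.0467 (M8, 0.0414 to 0.0525), 0.0603 (M32, 0.0505 to 0.0715) and 0.175 (M83, 0.161 to 0.191). In each library Bmp2 was thus below Grem1 per kilobase. The ratio was lower than in control in M8 and M32 and higher than in control in M83. Tgfbr2 over Tgfbr1 was 1.91 (control, 1.74 to 2.09), 2.22 (M8, 2.06 to 2.41), 3.27 (M32, 2.99 to 3.58) and 2.91 (M83, 2.70 to 3.13).

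The TGF-beta isoforms and the inhibitory Smads also changed balance between libraries. Tgfb1 over Tgfb3 was 0.959 (control, 95% exact interval 0.847 to 1.09), 1.92 (M8, 1.67 to 2.22), 0.560 (M32, 0.501 to 0.626) and 0.666 (M83, 0.604 to 0.735). Smad7 over Smad6 was 8.35 (control, 7.20 to 9.72), 5.99 (M8, 5.36 to 6.71), 3.16 (M32, 2.87 to 3.48) and 12.0 (M83, 10.4 to 13.8). M8 was highest in the first ratio, and M32 and M83 lay at opposite ends of the second. Tgfb3 lies on chromosome 12, where the median log2 ratio of all genes to control was -0.55 in M8. The part of the chromosome in the M8 ratio was not tested.

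**Figure D4:**
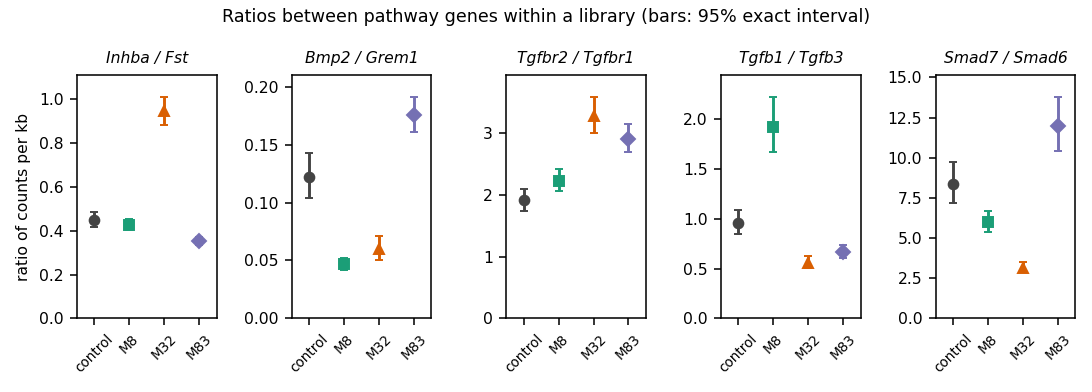
Ratios of counts per kilobase between pairs of pathway genes within each library, with 95% exact intervals that cover counting error only. Inhba over Fst is highest in M32, Tgfb1 over Tgfb3 in M8, and Smad7 over Smad6 in M83.

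Values were also set beside the median of their chromosome. Tgfb3, Id2 and Ltbp2 lie on chromosome 12 of GRCm38, where the median over all genes was -0.55 in M8 on the log2 scale. In that line Id2 was at -0.58, close to the chromosome, Tgfb3 was at -0.88, and Ltbp2 was at 0.52. The part of the chromosome in the M8 values of Tgfb3 and Id2 was not tested. In M32, where the median of chromosome 12 was -0.01, Id2 was at -0.46 and Tgfb3 at 0.60. Inhba, Fst and Smad5 lie on chromosome 13, whose median was -0.26 in M83. There Smad5 was at -0.34, near the chromosome, while Inhba at 0.69 and Fst at 1.04 lay above it. Acvr1b, on chromosome 15 with a median of -0.21 in M83, was at -0.09.

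**Figure D5:**
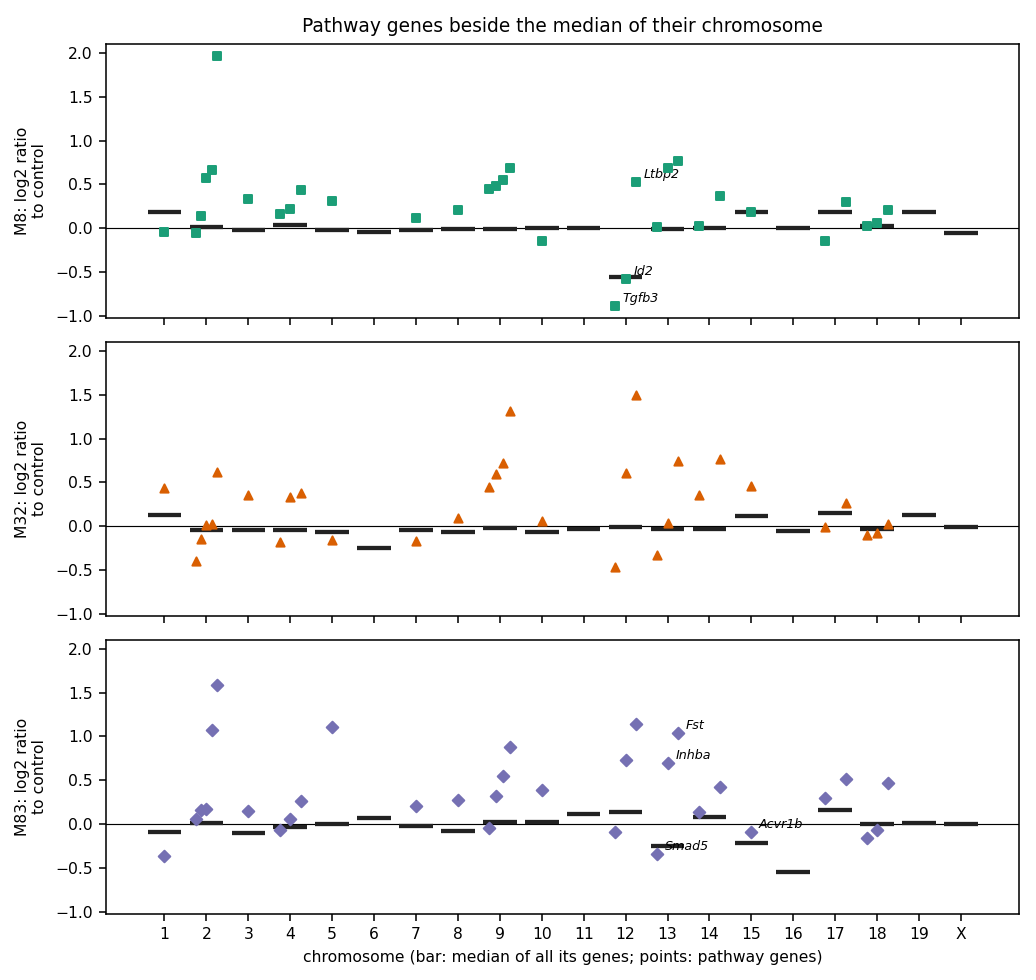
Log2 ratio to control of the 32 pathway genes by chromosome, 1 panel per line, beside the median of all genes of that chromosome (black bars). Names are given where the median is beyond 0.2 in size. Id2 lies on the chromosome 12 bar in M8, Tgfb3 below it and Ltbp2 above it.

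Further genes of the pathway were taken from lists by role, also chosen with earlier results of these data known. None of them passed in edgeR. Of 25 other ligands 5 were tested, and 3 exceeded control in each line (23.3% of all tested genes) while 1 was below it in each (21.3%). Gdf11, a relative of myostatin, had 179 (control), 319 (M8), 260 (M32) and 355 (M83) counts. Inha, the inhibin alpha subunit, which pairs with the Inhba product to form an inhibitor of activin, had 54 (control), 95 (M8), 121 (M32) and 108 (M83) counts. Bmp6 had 13, 40, 36 and 23 counts in control, M8, M32 and M83, and Amh 19, 11, 8 and 15. Lefty1, a Nodal antagonist chosen after its values were seen, had 78 (control), 94 (M8), 52 (M32) and 0 (M83) counts, and 0 counts allow up to 0.104 CPM in M83.

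Among 10 other receptors and co-receptors 5 were tested, and 2 exceeded control in each line (23.3% of all tested genes). Acvrl1, the type I receptor for BMP9 and BMP10, had 337 (control), 749 (M8), 760 (M32) and 518 (M83) counts (log2 difference 0.87, SE 0.341). Rgma, a BMP co-receptor, had 275 (control), 409 (M8), 512 (M32) and 889 (M83) counts. Bmpr1b had 2, 0, 6 and 24 counts in control, M8, M32 and M83, and Rgmb 963, 1553, 762 and 1456. Of 13 other antagonists 7 were tested, and 5 exceeded control in each line (23.3% of all tested genes). Bmper had 539 (control), 953 (M8), 885 (M32) and 1541 (M83) counts, and in the same order Twsg1 had 2043, 3056, 3997 and 3089. Chrd, which encodes chordin, had 73, 118, 205 and 116. Dcn, which encodes the TGF-beta-binding proteoglycan decorin, had 2 (control), 13 (M8), 48 (M32) and 29 (M83) counts, and a fold against so few counts is not given.

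In the latency and activation list 7 of 13 were tested, and 4 exceeded control in each line (23.3% of all tested genes). Thbs1, which encodes thrombospondin, an activator of latent TGF-beta, had log2 ratios of 2.05, 3.15 and 2.37 in M8, M32 and M83. DESeq2 called it (adjusted p = 4.38e-07), and edgeR did not (adjusted p = 1). Fbn1, the microfibril gene fibrillin, to which latent TGF-beta complexes attach, had 200 (control), 453 (M8), 536 (M32) and 532 (M83) counts. Itgav and Ltbp4 had log2 differences of 0.39 (SE 0.244) and 0.40 (SE 0.297). Of 18 other intracellular regulators 17 were tested, with a median log2 difference of -0.03. Of these, 4 exceeded control in all 3 lines and 4 were below it in all 3, shares close to those of all tested genes (23.3% and 21.3%). The log2 differences of Tgif2, Zeb2, Lemd3 and Zfyve9 were 0.62, -0.34, 0.29 and 0.19.

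Of 22 TGF-beta target genes 18 were tested, and 8 exceeded control in all 3 lines (23.3% of all tested genes) while 1 was below it in all 3 (21.3%). Col1a1 and, among the antagonists, Dcn are also in the mesenchymal marker list. The collagen gene Col1a1 had log2 ratios of 1.05, 1.52 and 1.39 in M8, M32 and M83 and was called by DESeq2 (adjusted p = 0.00295) but not by edgeR (adjusted p = 1). Acta2, the smooth muscle actin gene, had 6 (control), 199 (M8), 474 (M32) and 53 (M83) counts. Col3a1 had 1748 (control), 7748 (M8), 12998 (M32) and 2047 (M83) counts, so M83 was near control. The cell cycle inhibitor gene Cdkn1a had 5371 (control), 10344 (M8), 6756 (M32) and 8319 (M83) counts. Of 12 BMP target genes 7 were tested, with 0 above control in each line (23.3% of all tested genes) and 0 below it in each (21.3%). Atoh8 had 156 (control), 172 (M8), 487 (M32) and 344 (M83) counts, Hey1 had 35, 107, 62 and 18, Unc5b had 3503, 6337, 5592 and 3127, and Msx1 had 645, 586, 732 and 507.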

How the data were processed

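Values were used as deposited by the authors, who gave unnormalised counts for each gene. GRCm38 is the build named in the submitters' processing notes. For the aligner, counter, annotation and strand setting the sources used here give nothing, so opposite-strand overlaps may share reads. No column was left unmapped.

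From these counts, scaled CPM was computed with TMM factors of edgeR 4.0.16 (R 4.3.3), which lay between 0.986 and 1.03. The 3 ENU mutant lines were fitted against control by the quasi-likelihood F-test of edgeR (filterByExpr, 13576 of 41457 genes tested, Benjamini-Hochberg adjustment over all of them, threshold 0.05). The SE is the log2 difference divided by the square root of F. DESeq2 1.42.0 was the alternative tool. Log2 ratios of single lines used a prior count of 2, and intervals are exact 95% binomial (Clopper-Pearson). Intervals and the limit of 3 counts for a count of 0 cover counting error only. The alternatives were scaling by library size, DESeq2 size factors, no filter, other count minimums (0 and 200), a prior count of 0.5 and leaving out each line. Exon lengths and positions came from GENCODE vM21, which uses GRCm38 and holds 41434 of the row identifiers. The scripts were tested on simulated data.

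The pathway genes and lists were chosen with earlier results of these data known. Genes named with values were the 8 with the smallest unadjusted p, those past 2-fold in any line, those set apart in 1 library, the 6 with the highest level per length, and Smad2, Smad3, Smad4, Tgfbr1 and Tgfbr2, and up to 4 per further list by smallest p. Any other gene with values was picked after its values had been seen.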

Additional observations from a re-analysis of the deposited data

How the results depend on the processing

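The count of pathway genes called in edgeR (0) was 0 as well with scaling by library size, with no filter on low counts, in DESeq2 and without each line in turn. The counts past 2-fold in single lines stayed within 1.5 times of those reported under both other scalings, both other count minimums and the smaller prior count. Of the log2 differences of 19 named genes, 1 changed sign. Smad2, at -0.03 with all lines, lay between -0.0888 (without M32) and 0.0102 (without M83). The smallest edgeR adjusted p among these genes was 0.938 with no filter, and DESeq2 gave 0.295 (Grem1) as its smallest. Tgfb2 was not tested without M83, because it then missed the filter. Scaling by library size took the log2 ratio of Ltbp1 in M83 from 0.51 to 0.58, more than its counting interval. No paired analysis was possible because the control is 1 library and the labels carry no replicate numbers. Genes under 50 counts (Tgfb2, Tgfbi, Bmp4 and Bmp7) are limited by depth, since 3 counts correspond to 0.104 to 0.118 CPM.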
